A study of Mus musculus with 4 samples.

Results

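Genes that ERK signaling switches on, most of them to restrain itself, were followed in mouse ID8 ovarian cancer cells after USP9X knockdown. They are the phosphatase genes Dusp1, Dusp4, Dusp5 and Dusp6, the inhibitor genes Spry1, Spry2, Spry4 and Spred1, and the transcription factor genes Etv4 and Etv5. These 10 genes were taken by symbol from the 22063 genes of the expression table, and all 10 had enough counts to be tested. ID8 is a transplantable line that arose from mouse ovarian surface epithelium. The study, which asked how the deubiquitinase USP9X acts in TGF-β and hypoxia signaling, sequenced poly(A) RNA of ID8 cells with a control shRNA (shCtrl, labelled wild type) and of ID8 cells with an shRNA against USP9X (shUSP9X), 2 libraries per group. Any other treatment, the oxygen level and the shRNA sequence of these cells are not given in the labels, and a knockdown by an shRNA leaves some of the target mRNA. The shCtrl libraries held 17232006 and 15611363 estimated counts, and the shUSP9X libraries held 19978889 and 17021261.

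In growth factor signaling, ligands bind receptor tyrosine kinases, adaptors load Ras with GTP, and Raf, MEK and ERK then phosphorylate each other in turn. Active ERK induces its own brakes: dual-specificity phosphatases remove the phosphates from ERK and related kinases, and Sprouty and Spred proteins hold back Ras and Raf. Etv4 and Etv5 belong to the PEA3 group of ETS factors, which ERK induces in part by relieving repression by Capicua, and transcripts of this kind are widely read as a measure of ERK output.

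Usp9x itself (chromosome X, 13071498-13173328, plus strand) had 5169 and 4453 counts in the shCtrl libraries and 390 and 346 in the shUSP9X libraries. Its level was 289.8 ± 11.6 CPM (counts scaled to a common library size; SD, n = 2) in shCtrl and 20.1 ± 0.570 in shUSP9X, 14.4-fold lower (log2 fold change -3.85, edgeR adjusted p = 4.7e-26). With the trend on GC content and length described below subtracted, the log2 fold change was -2.34. The libraries therefore carried the knockdown that their labels name. Keratin genes of a simple epithelium were abundant (Krt8, Krt18 and Krt19), as were the mesothelial genes Msln, Wt1 and Upk3b. Krt7, Epcam and Pax8, which mark other ovarian and tubal epithelia, had at most 9 counts in a library. The labels do not say whether the libraries of a group came from separate cultures, so the p-values measure the spread between these libraries, which may be technical. In bulk RNA, fewer cells of a type and less RNA per cell cannot be told apart.

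The ERK feedback genes did not move as a group. At an adjusted p under 0.05 (quasi-likelihood test of edgeR, adjusted by Benjamini-Hochberg for the 11448 genes tested), Dusp1, Spry1 and Spred1 were lower in shUSP9X cells, 3 of 10, against 33.6% of all genes tested. Dusp5, Spry4, Etv4 and Etv5 were higher, 4 of 10, against 33.8% of all genes tested. Dusp4, Dusp6 and Spry2 did not pass the threshold. The median log2 fold change of the 10 genes was 0.03, against -0.00 over all genes tested, and ran from -0.01 in the FPKM fits to 0.07 without replicate 2 of shCtrl. When a gene had to change by more than 1.5-fold at an unadjusted p under 0.05, the same 3 genes were lower, and Dusp5 and Etv4 were higher. That rule was met by 18.7% of all genes in the lower direction and by 10.8% in the higher direction. The counts among the 10 genes were near these shares under the first rule. With the trend on GC content and length described below subtracted, Dusp1, Spry1 and Dusp4 were lower and Spred1 was not called. Dusp5, Spry4, Etv4 and Etv5 were higher in that fit, where 27.4% of all genes were lower and 36.1% higher.

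**Figure D1:**
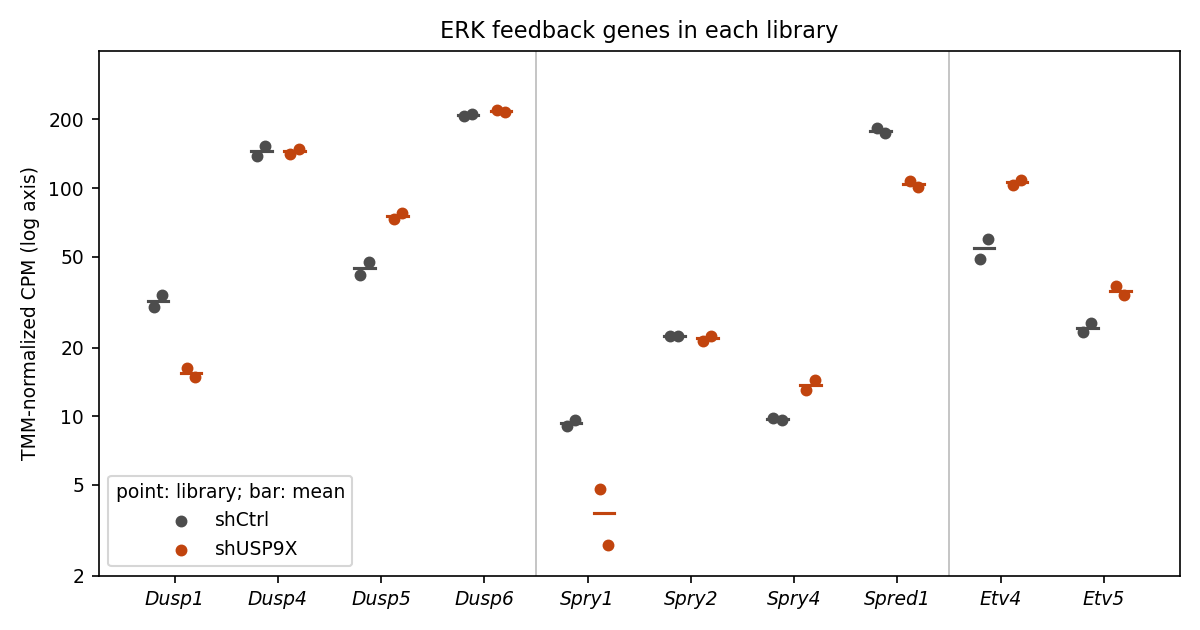
Normalized level of each ERK feedback gene in every library, in CPM on a log axis, with shCtrl and shUSP9X side by side and a line at each group mean. Dusp1, Spry1 and Spred1 sat lower in both shUSP9X libraries, and Dusp5, Spry4, Etv4 and Etv5 higher, while Dusp4 and Spry2 overlapped between the groups.

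Promoter windows of the feedback genes were searched for motifs, and stretches are shown from those that held matches, in Dusp1, Dusp5, Dusp6 and Etv5. RefSeq windows for GRCm38.p6 were matched by symbol for 7 of the 10 genes, and Dusp4, Spry4 and Etv4 were not among them. The 250 bases before each start were searched on both strands for TGACGTCA (the cAMP response element, bound by CREB and ATF factors), its shorter form TGACG, the CArG box (bound by serum response factor), TGAATG (the core of the Capicua site, chosen after the sequences had been seen), TGAATGAA, CCGGAAG (ETS factors) and TGAGTCA (AP-1). The shorter form lies within the whole one and TGAATG within TGAATGAA. The stretches below run 5′ to 3′ on the strand of the gene, with matches in capitals, and stop short of the annotated exons of the gene. The Dusp1 stretch is chr17:26508572-26508672 on the minus strand. It lies inside the span annotated for Dusp1, which begins farther upstream, at 26562128. The Dusp5 stretch is chr19:53529015-53529107 on the plus strand, in an exon of the antisense gene AC137853.2. The Dusp6 stretch is chr10:99263071-99263131 on the plus strand, and the Etv5 stretch, upstream of the second of 2 listed starts and inside an intron, is chr16:22438479-22438618 on the minus strand.
Dusp1: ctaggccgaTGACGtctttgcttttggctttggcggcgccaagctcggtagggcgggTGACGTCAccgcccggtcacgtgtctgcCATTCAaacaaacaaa
Dusp5: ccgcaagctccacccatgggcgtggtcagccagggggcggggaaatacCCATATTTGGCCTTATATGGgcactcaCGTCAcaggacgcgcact
Dusp6: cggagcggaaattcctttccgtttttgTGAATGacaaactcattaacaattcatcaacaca
Etv5: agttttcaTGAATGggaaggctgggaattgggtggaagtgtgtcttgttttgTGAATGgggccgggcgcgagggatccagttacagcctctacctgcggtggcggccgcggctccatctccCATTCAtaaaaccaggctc

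Dusp1, the lower of the phosphatase genes, held a whole cAMP response element 143 to 136 bases before its RefSeq start, a motif found in 1.55% of the 32851 windows of the table. A separate shorter form lay 191 to 187 bases before that start. Dusp5, the higher one, held 2 adjacent CArG boxes, at 82 to 73 and 72 to 63 bases before its start, a motif found in 1.47% of windows. The shorter form in Dusp5 lay 55 to 51 bases before the start, and 17.8% of all windows held one. TGAATG stood once each in the windows of Dusp1 (115 to 110), Dusp5 (37 to 32) and Dusp6 (133 to 128), and 3 times upstream of the second Etv5 start, against 10.9% of all windows. The genes that held it were lower (Dusp1), higher (Dusp5 and Etv5) and not past the threshold (Dusp6). The Dusp5 match overlapped an annotated exon of Dusp5, which holds 36 bases of that window, and is outside the printed stretch. TGAATGAA (1.08% of windows), CCGGAAG (6.91%) and TGAGTCA (4.46%) were not found in any of the 8 windows searched, and Spry1, Spry2, Spred1 and the first Etv5 start held none of the motifs. A match describes letters and not a bound site, and a link between the motifs and the direction of change was not tested.

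**Figure D2:**
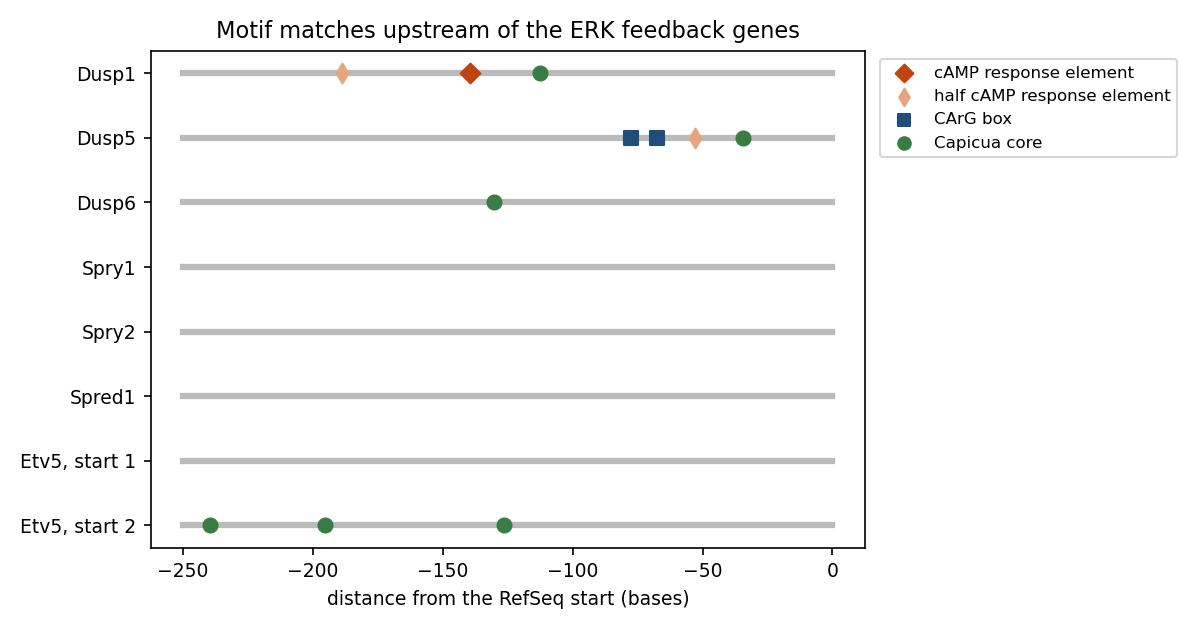
Position of motif matches in the 250 bases before each RefSeq start, in bases from the start, with 1 line per window. The whole cAMP response element appears only in the Dusp1 window and the CArG boxes only in the Dusp5 window.

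Dusp1, Dusp4 and Dusp5 encode inducible nuclear MAP kinase phosphatases, and Dusp6 a cytoplasmic one. Dusp1 (ENSMUSG00000024190, chromosome 17, 26505590-26562128, minus strand) encodes a nuclear phosphatase that acts on p38, JNK and ERK and is an immediate early gene. Its level was 30.2 and 34.0 CPM in the shCtrl libraries and 16.2 and 14.9 CPM in the shUSP9X libraries. Both shUSP9X libraries lay below both controls, and the mean fell from 32.1 ± 2.73 to 15.5 ± 0.913 CPM (SD, n = 2). The log2 fold change was -1.04 (SE 0.10, 95% interval -1.25 to -0.83, edgeR adjusted p = 1.5e-09), which is 2.06-fold lower. An exon of Ergic1 on the other strand shares 11 bases with the exons of Dusp1.

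Dusp5 (ENSMUSG00000034765, chromosome 19, 53529109-53542431, plus strand) encodes a nuclear phosphatase that is selective for ERK. It was at 41.4 and 47.4 CPM in shCtrl and at 73.0 and 77.4 CPM in shUSP9X, with no overlap. The mean rose from 44.4 ± 4.26 to 75.2 ± 3.14 CPM, a log2 fold change of 0.76 (SE 0.07, 95% interval 0.62 to 0.90, edgeR adjusted p = 2.7e-10). Dusp5 was thus 1.69-fold higher in the same libraries in which Dusp1 was lower. The antisense gene AC137853.2 shares 547 of the 2473 exonic bases of Dusp5, and since no source states that strand was used in counting, reads of the pair cannot be told apart there.

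Dusp4 and Dusp6 were the most abundant of these phosphatase transcripts, and their levels did not pass the test. Dusp6 (ENSMUSG00000019960, chromosome 10, 99263231-99267489, plus strand), the cytoplasmic phosphatase most specific for ERK, was at 207 and 210 CPM in shCtrl and at 221 and 216 CPM in shUSP9X. The shUSP9X libraries lay just above the controls, but the log2 fold change was 0.07 with a 95% interval of -0.02 to 0.15 (edgeR adjusted p = 0.157). Upper quartile scaling brought it under the threshold (0.10, edgeR adjusted p = 0.0384). Dusp4 (ENSMUSG00000031530, chromosome 8, 34807297-34819894, plus strand), a nuclear phosphatase of ERK and JNK, was at 138 and 154 CPM in shCtrl and at 141 and 149 CPM in shUSP9X. The shUSP9X values fell between those of the controls, and the interval of the log2 fold change, -0.12 to 0.10, held both directions (-0.01, edgeR adjusted p = 0.861). Summed over the 4 phosphatase genes, the libraries held 416.5 and 445.3 CPM in shCtrl and 450.5 and 457.0 CPM in shUSP9X, while within that sum Dusp1 and Dusp5 moved in opposite directions.

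The Sprouty and Spred genes differed among themselves as well. Spry1 (ENSMUSG00000037211, chromosome 3, 37639947-37644598, plus strand), an inducible inhibitor that acts between the receptor and Raf, had 157 and 152 counts in shCtrl and 95 and 46 counts in shUSP9X. In CPM these were 9.05 and 9.61 against 4.81 and 2.73, so both shUSP9X libraries were lower but differed from each other. The log2 fold change of -1.29 (SE 0.21, 95% interval -1.72 to -0.86, edgeR adjusted p = 5.7e-06), 2.44-fold lower, was the largest in size among the 10 genes. It was -1.77 without replicate 1 of shUSP9X and -0.96 without replicate 2. The antisense gene Gm42922 shares 710 of the 2906 exonic bases of Spry1, and its reads cannot be told apart from those of Spry1 there.

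Spry4 moved the other way. This Sprouty gene (ENSMUSG00000024427, chromosome 18, 38586247-38601415, minus strand) was at 9.80 and 9.61 CPM in shCtrl and at 13.0 and 14.5 CPM in shUSP9X. The groups did not overlap, and the log2 fold change was 0.50 (SE 0.13, 95% interval 0.22 to 0.78, edgeR adjusted p = 0.0021), 1.41-fold higher. Its low counts, between 152 and 257 per library, gave it a wider error than the abundant genes. Spry2 (ENSMUSG00000022114, chromosome 14, 105891947-105896819, minus strand), which binds Cbl and Grb2, was at 22.5 and 22.6 CPM in shCtrl and at 21.5 and 22.6 CPM in shUSP9X. Its groups overlapped, and the interval of the log2 fold change ran from -0.24 to 0.17 (-0.04, edgeR adjusted p = 0.769).

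Spred1 (ENSMUSG00000027351, chromosome 2, 117121374-117182279, plus strand) brings neurofibromin, a GTPase-activating protein, to Ras at the membrane. It was at 184 and 174 CPM in shCtrl and at 107 and 101 CPM in shUSP9X, the lowest adjusted p among the 10 genes. The mean fell from 178.7 ± 7.24 to 104.1 ± 4.18 CPM, 1.72-fold lower (log2 fold change -0.78, SE 0.05, 95% interval -0.88 to -0.68, edgeR adjusted p = 1.7e-13). Nf1, which encodes neurofibromin, fell beside it, with a log2 fold change of -1.01 (SE 0.06, edgeR adjusted p = 9.7e-15); it was named after its value was seen. Spred1 made up most of the Sprouty and Spred transcripts, whose sum was 225.2 and 215.4 CPM in shCtrl and 146.4 and 141.0 CPM in shUSP9X.

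The fall of Spred1 depended on whether a trend on GC content and transcript length was subtracted. GC content and length were fitted together, so their parts in that dependence were not separated. Across genes, which are not independent replicates, log2 fold changes rose with the GC content of the transcript (Spearman's rho = 0.447). The Spred1 transcript, at 41.22% GC and 6016 bases, fell in the lowest of 10 equal classes of GC content, whose median log2 fold change was -0.88. Once each library's trend on GC content and length had been subtracted, the log2 fold change of Spred1 was 0.05 (edgeR adjusted p = 0.330), and Nf1 was then higher, at 0.14 (edgeR adjusted p = 0.0165). Dusp4 then passed the threshold as lower (-0.23, edgeR adjusted p = 6.7e-05), beside the median of 0.25 in its own class of GC content. Dusp1 (-1.296), Spry1 (-1.501), Dusp5 (0.53), Spry4 (0.47), Etv4 (0.73) and Etv5 (0.45) kept their direction and stayed past the threshold. Subtracting the trend also removes whatever true group difference runs along GC content or length, and the origin of the trend was not tested.

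**Figure D3:**
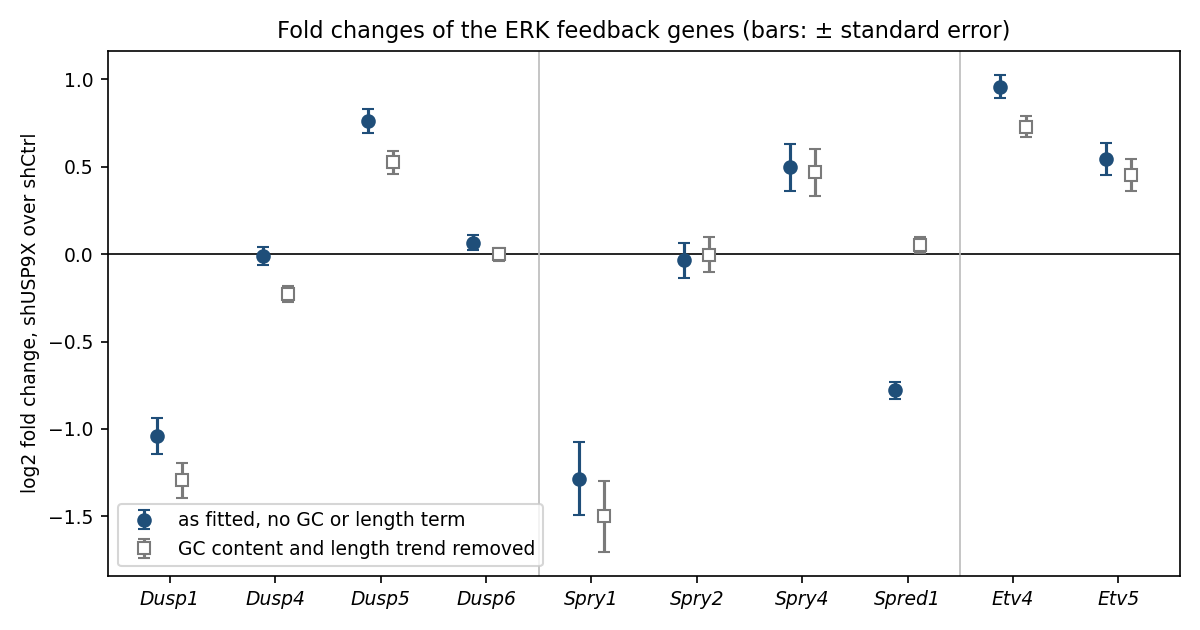
Log2 fold change of each ERK feedback gene, shUSP9X over shCtrl, with bars of 1 standard error on either side. Filled circles are the values as fitted and open squares those after the trend on GC content and length was subtracted; Spred1 moves from -0.78 to 0.05, while Dusp1 and Spry1 stay below 0 and Dusp5, Spry4, Etv4 and Etv5 stay above it.

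Etv4 and Etv5 rose together. Etv4 (ENSMUSG00000017724, chromosome 11, 101769742-101785371, minus strand), an ETS activator of invasion genes, was at 49.1 and 60.0 CPM in shCtrl and at 103 and 108 CPM in shUSP9X. Every shUSP9X value was well above the controls, and the mean rose from 54.5 ± 7.69 to 105.8 ± 3.59 CPM. The log2 fold change of 0.96 (SE 0.07, 95% interval 0.82 to 1.10, edgeR adjusted p = 2.0e-12), 1.94-fold, was the largest rise among the 10 genes. Etv5 (ENSMUSG00000013089, chromosome 16, 22381309-22439719, minus strand), its close relative, was at 23.3 and 25.6 CPM in shCtrl and at 37.1 and 33.9 CPM in shUSP9X. The groups did not overlap, and the log2 fold change was 0.54 (SE 0.09, 95% interval 0.35 to 0.73, edgeR adjusted p = 1.0e-05), 1.46-fold. Their summed level was 72.4 and 85.5 CPM in shCtrl and 140.4 and 142.3 CPM in shUSP9X. Etv1, the remaining PEA3 gene, had between 5 and 11 counts per library and was not tested. Cic, which encodes Capicua and was named after its value was seen, was lower (log2 fold change -0.30, SE 0.07, edgeR adjusted p = 2.4e-04). With the trend on GC content and length subtracted, Cic was at -0.19. Any part of Cic in the levels of Etv4 and Etv5 was not tested.

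Compared per length, in FPKM, the genes spanned a wide range of levels. In shCtrl the order ran from Dusp6 (76.3 ± 1.34 FPKM; SD, n = 2) and Dusp4 (53.8 ± 4.25) through Spred1 (30.9 ± 1.31), Etv4 (23.0 ± 3.35), Dusp5 (18.1 ± 1.82), Dusp1 (16.3 ± 1.40) and Spry2 (10.9 ± 0.0799) to Etv5 (6.20 ± 0.433), Spry1 (3.79 ± 0.131) and Spry4 (2.06 ± 0.0191). Dusp5 and Dusp1 were the neighbours whose libraries overlapped in this order. In shUSP9X the order was Dusp6 (77.4 ± 1.299 FPKM), Dusp4 (52.3 ± 2.16), Etv4 (43.8 ± 1.496), Dusp5 (30.1 ± 1.27), Spred1 (17.5 ± 0.991), Spry2 (10.4 ± 0.373), Etv5 (8.84 ± 0.568), Dusp1 (7.73 ± 0.452), Spry4 (2.86 ± 0.219) and Spry1 (1.52 ± 0.592), with no overlap between neighbours. Etv4 and Dusp5 had moved above Spred1, Spry2 and Etv5 above Dusp1, and Spry4 above Spry1.

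The pattern most like that of Spry1 over the 4 libraries, each gene centred on its mean log2 CPM, was that of Alpk1, at a root mean square difference of 0.0638. Alpk1, an innate immune kinase gene, was at 3.98 and 3.92 CPM in shCtrl and at 1.92 and 1.19 CPM in shUSP9X. Haghl came next, at a difference of 0.102, with 8.59 and 7.72 CPM against 3.79 and 2.26 CPM.

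Close paralogs gave a mixed picture too. Of 10 listed, 7 were tested, of which 3 were lower and 1 higher, against 33.6% and 33.8% of all genes tested. Their median of -0.30 on the log2 scale lay between -0.23 and -0.15 with 1 library left out, and the lower genes numbered 1 without replicate 1 of shUSP9X. Dusp7, a cytoplasmic ERK phosphatase related to Dusp6, rose from 19.9 ± 0.535 to 38.2 ± 0.790 CPM (log2 fold change 0.94, edgeR adjusted p = 9.9e-10). Dusp16, a JNK and p38 phosphatase, fell from 75.9 ± 2.31 to 45.5 ± 1.12 CPM (-0.74, edgeR adjusted p = 9.0e-11). Spred2 was lower by less (-0.19, edgeR adjusted p = 0.0016), as was Dusp10, which acts on p38 and JNK (-0.30, edgeR adjusted p = 0.0373). The call of Dusp10 was lost in 6 of 15 alternatives, among them DESeq2 (adjusted p = 0.152), upper quartile scaling and both FPKM fits, with an adjusted p up to 0.292 without replicate 1 of shUSP9X, and that of Spred2 without replicate 1 of shUSP9X (edgeR adjusted p = 0.0736). Dusp8 (-0.31), Dusp9 (0.53) and Spred3 (-0.31) did not pass the threshold, but Dusp8 (-0.39) and Spred3 (-0.45) did so as lower once the trend on GC content and length was subtracted. With 1 library left out, Dusp8 ran from -0.56 without replicate 1 of shCtrl to -0.024 without its replicate 2, and Spred3 from -0.54 without replicate 2 of shCtrl to -0.020 without its replicate 1, and each passed the threshold at its lowest value. Dusp9, with 18 to 40 counts per library, ran from 0.21 to 0.78. Dusp2 was listed at 0 in every library, where 3 counts would be 0.152 to 0.19 CPM, and Spry3 was not analysed here.

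Around the feedback genes, 96 tested genes in 6 further role lists and the paralogs held 39 lower and 31 higher genes, against 33.6% lower and 33.8% higher among all genes tested. Their median of -0.08 on the log2 scale lay between -0.12 and -0.03 with 1 library left out, and turned to 0.02 with the GC content and length trend subtracted. Of the growth factor ligands, 7 of 16 tested were lower and 4 higher. In both FPKM fits, 3 were lower and 4 higher. The rule with a 1.5-fold change gave 4 lower and 3 higher, against 18.7% and 10.8% of all genes tested. The Erbb ligand genes Areg (log2 fold change 0.99, edgeR adjusted p = 4.2e-10) and Btc (0.63, edgeR adjusted p = 3.4e-11) rose. The other Erbb ligand genes of the list, named after their values were seen, went both ways. Ereg (0.46) and Hbegf (0.94) rose. Egf (-2.72, with 2 to 21 counts per library) and Nrg1 (-0.44) were lower, and Tgfa (-0.05) did not pass the threshold. Kitl, the ligand of Kit, fell from 63.3 ± 0.774 to 16.6 ± 0.335 CPM (-1.93, edgeR adjusted p = 3.2e-17). With the trend on GC content and length subtracted, Kitl was at -0.95 and Btc at 1.19. Of the receptors, 8 of 14 were lower and 2 higher. Pdgfra fell from 14.6 ± 1.48 to 2.02 ± 0.420 CPM (-2.87, edgeR adjusted p = 6.6e-13), whereas Kit (0.57) and Axl (0.53), the most abundant receptor of the list, rose. Pdgfra was at -1.87 in the fit of log2(FPKM + 1), and Kit lost its call in that of log2(FPKM + 0.1) (limma adjusted p = 0.0510). After subtracting the trend on GC content and length, the receptor list held 6 lower and 6 higher, against 27.4% lower and 36.1% higher among all genes in that fit.

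Within the cascade from adaptors to ERK, 7 of 19 genes were lower and 6 higher, with a median of 0.08, against 33.6% and 33.8% of all genes tested. Upper quartile scaling gave 6 lower and 10 higher. Over all genes, that scaling called 7770, of which 46.7% were lower. The rule with a 1.5-fold change gave 4 lower and 0 higher, against 18.7% and 10.8% of all genes tested. After the trend on GC content and length was subtracted, 3 were lower and 9 higher, against 27.4% and 36.1% of all genes in that fit. Braf was lowest, at 41.8 ± 3.03 CPM in shCtrl and 15.9 ± 1.11 CPM in shUSP9X (log2 fold change -1.40, edgeR adjusted p = 1.4e-12), and lost the call when that trend was subtracted (-0.21, edgeR adjusted p = 0.0624). Hras rose (0.55, edgeR adjusted p = 8.6e-09), as did Ptpn11, the phosphatase SHP2 that relays receptor signals to Ras (0.13, edgeR adjusted p = 0.0044). With the trend subtracted Hras was at 0.34, and Ptpn11 lost its call in both FPKM fits and without replicate 1 of shUSP9X (adjusted p up to 0.182). Of the other inhibitors of the pathway, 8 of 16 were lower and 5 higher, beside the same 33.6% and 33.8%. With that trend subtracted 4 were lower and 8 higher, beside 27.4% and 36.1%. Rasa1, a Ras GTPase-activating protein gene, fell from 68.6 ± 0.858 to 21.3 ± 1.09 CPM (-1.69, edgeR adjusted p = 1.5e-16), and by 1.08 on the log2 scale with the trend subtracted. Errfi1, an inducible inhibitor of EGFR, rose from 50.9 ± 2.73 to 84.1 ± 1.37 CPM (0.72, edgeR adjusted p = 7.6e-11). Pebp1, a Raf inhibitor gene, was higher by 0.20 (edgeR adjusted p = 5.8e-05) but lower by the same test with the trend subtracted (-0.12).

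Downstream, ERK substrates were lower in 2 of 10 and higher in 3, against 33.6% lower and 33.8% higher among all genes tested. Rps6ka3, which encodes the kinase RSK2, was lowest (log2 fold change -1.25, edgeR adjusted p = 4.2e-17), a fall that shrank to -0.24 with the trend subtracted (edgeR adjusted p = 1.1e-04). Elk3, a ternary complex factor gene, was highest (0.43, edgeR adjusted p = 1.9e-07). Ets1 had a value of 0.07 (edgeR adjusted p = 0.203) and passed the threshold as higher with the trend subtracted (0.26, edgeR adjusted p = 5.8e-06). Of the transcripts that ERK induces outside the feedback group, all 14 tested passed the threshold, 10 higher and 4 lower, against 33.8% higher and 33.6% lower among all genes tested. Their median was 0.43, and with the trend subtracted it was 0.26, with 8 higher and 5 lower, against 36.1% and 27.4% of all genes in that fit. The rule with a 1.5-fold change gave 4 higher and 3 lower, against 10.8% and 18.7% of all genes tested. Fosl1, the AP-1 gene FRA1, rose from 23.6 ± 2.43 to 93.9 ± 6.06 CPM (1.99, edgeR adjusted p = 3.4e-18), and the abundant cyclin gene Ccnd1 rose by 0.32 (edgeR adjusted p = 1.2e-09). Fosb fell from 18.0 ± 2.71 to 0.655 ± 0.00340 CPM (-4.76, edgeR adjusted p = 5.6e-16). Its shUSP9X libraries held only 13 and 11 counts, so that small SD does not reflect counting error. Fosb was at -2.28 in the fit of log2(FPKM + 1), where the added 1 shrinks low values. The other 3 lower genes, named after their values were seen, were Fos (-4.63), Egr1 (-1.62) and Ier2 (-0.30). The other 8 higher genes ranged from 0.17 (Junb and Ier3) to 1.15 (Plaur), and Junb (-0.06) and Ier3 (-0.13) changed sign with the trend subtracted. Ier2 was then at -0.58 and Maff at 0.27. Immediate early genes stood on both sides, among them Dusp1, Fos, Fosb and Egr1 lower and Myc (0.97) and Maff (0.54) higher.

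**Figure D4:**
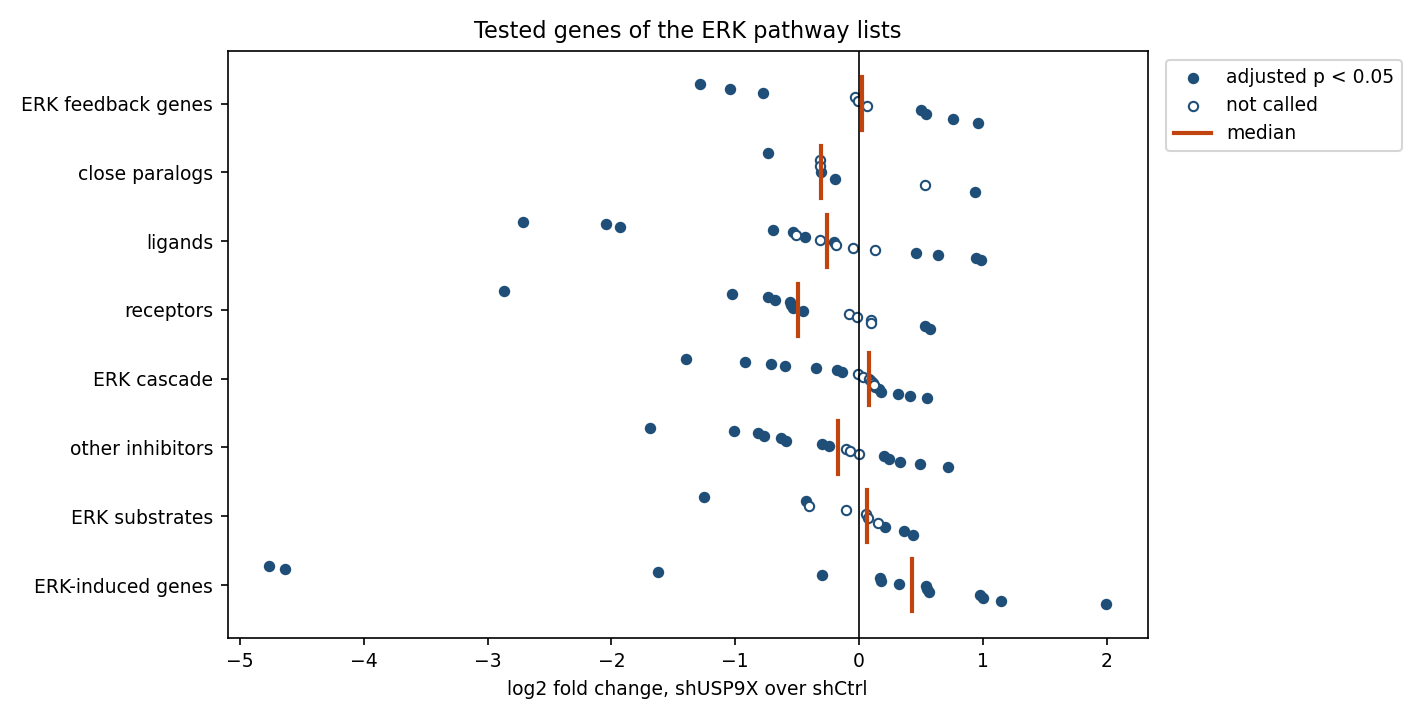
Log2 fold change, shUSP9X over shCtrl, of every tested gene in the ERK feedback group and 7 further lists, 1 row per list, with filled points at an adjusted p under 0.05, open points otherwise and a bar at the list median. The ERK feedback genes lie on both sides of 0 around a median of 0.03, and the ERK-induced genes reach from -4.76 (Fosb) to 1.99 (Fosl1).

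Markers of other cell types were read in the same libraries. The leukocyte list of 7 genes summed to 4.32 and 4.36 CPM in shCtrl and 8.50 and 7.18 CPM in shUSP9X, with Cd68 its most abundant gene. Ptprc was at 0 in both shCtrl libraries and at 29 and 18 counts in shUSP9X, and Csf1r at 0 against 17 and 13 counts, while Cd3e was at 0 throughout and Lyz2 and S100a8 had at most 2 counts. Spry1, for comparison, had at least 46 counts in every library. The endothelial list of 4 genes summed to 10.4 and 11.6 CPM in shCtrl and 6.48 and 7.004 CPM in shUSP9X, nearly all from Tek, with Cdh5 and Kdr at 0. Pecam1, with 9 to 19 counts per library, did not pass the threshold (log2 fold change 0.04, edgeR adjusted p = 0.952). The fibroblast list of 5 genes summed to 251.8 and 258.9 CPM in shCtrl and 147.7 and 145.1 CPM in shUSP9X, most of it Dcn, with Col1a1 and Pdgfra also lower and Lum at 0. Col1a2, not tested, had 1 and 0 counts in shCtrl and 0 and 12 counts in shUSP9X. These sums differed between the groups, and their part in the feedback genes' values was not tested.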

How the data were processed

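RNA-seq of 4 libraries was analysed. According to the study's methods, reads were mapped to GRCm38 and handled with StringTie and DESeq2, with cutoffs of 0.05 on the p-value and 1.5 on the fold change; the submitters' processing notes list fastp 0.18.0, Bowtie2 2.2.8, HISAT2, StringTie 1.3.1 and RSEM. The authors deposited estimated counts per gene, not normalized, and FPKM values, scaled for transcript length and library size, for each library without pooling. Whether counting used strand is not given in the sources used here. Between 6.395 and 6.69% of the estimated counts were not whole, so counts were rounded. Molecular identifiers are not described, so floors cover counting error only. Of 22063 genes, 11448 passed filterByExpr. In R 4.3.3, TMM scaling was followed by a two-sided quasi-likelihood test (edgeR 4.0.16) with Benjamini-Hochberg adjustment. The SE was the log2 fold change divided by the square root of F, and CPM used TMM library sizes. Libraries of a group differed by more than sampling noise (chi-square per gene 3.36 in shCtrl and 2.09 in shUSP9X), and the common biological coefficient of variation was 0.0352. Because 2 libraries against 2 allow no permutation test under 0.05, none was run. Coordinates, exon overlaps, GC content and length came from GENCODE M21 (21973 genes matched) and promoter windows from RefSeq. Nrg1 had a second row, at 0 in every library, which was not used.

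The genes and lists were chosen with earlier results of these data known. Named genes were the 10 feedback genes, Usp9x, their 10 paralogs, in each further list the lowest and the highest called gene (mean log2 CPM 1 or more) and the most abundant one, and the 2 genes nearest in pattern to the called feedback gene of largest change. A gene of the lists is not reported by name here. Marker genes, genes said to be named after their values were seen, and the ERK-induced genes Junb, Ier3, Plaur, Myc and Maff are outside this rule. In simulated 2 against 2 libraries, 93.8% of 195 genes changed 2-fold were recovered among 11323, with 8 of 11128 unchanged genes called. With a simulated trend, linear in GC content and without a length term, the offset lowered false calls from 5391 of 11130 unchanged genes to 5 of 11113. The offset is built to fit such a trend, so this checks the code and not how the offset acts on these data. Alternatives were DESeq2 1.42.0, 3 other scalings, a looser and a stricter count filter, limma-trend (limma 3.58.1) on log-transformed FPKM (pseudocount 1 or 0.1, mean FPKM 1 or more), a replicate block, a loess offset (span 0.3) on GC content and length with and without the block, the study's cutoff, and each library left out.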

Additional observations from a re-analysis of the deposited data

How the results depend on the processing

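Of 36 named genes recomputed, 23 kept their direction and side of the threshold under every alternative run for them (13 for Dusp9, 15 for the others), among them 6 feedback genes (Dusp1, Dusp5, Spry1, Spry4, Etv4 and Etv5). Deviations of same-numbered libraries from their group means correlated at r = -0.0453 over 11448 genes. With 2 libraries per group, this cannot show whether same-numbered libraries were handled together. A replicate block gave 7665 called genes in place of 7707 and changed the call of no feedback gene. With a required change of 1.5-fold at an unadjusted p of 0.05, the lower genes numbered 2143 and the higher ones 1233, 2 feedback genes were higher, and the other ERK lists held 23 lower and 9 higher. With the GC content and length offset, 7254 genes were called, 5991 of them shared, and Spred1 (0.0508), Dusp6 (-0.000686) and Pebp1 (-0.12) changed sign, with 0.04999, -0.000699 and -0.12 when the replicate block was added. Dusp4 was positive with upper quartile scaling (0.0216) and without a count filter (0.000691), and Ets1 was -0.0115 and -0.0118 in the FPKM fits. With each library left out, the log2 fold change ranged from -0.0809 to 0.0660 for Dusp4 and from -0.0710 to 0.00135 for Spry2. All genes then held 3369 to 3718 lower and 3402 to 3850 higher, the feedback genes 3 to 3 lower and 4 to 4 higher, and the other ERK lists 31 to 39 lower and 28 to 34 higher; a lone library was assumed to vary like the other group. The causes of these changes were not tested. Among the feedback genes, depth limits Spry1 and Spry4 most (46 to 257 counts per library).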

Other observations

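Among the mesothelial and epithelial markers that served to check the cells, the transcripts moved in both directions. Krt8 rose from 319 ± 7.06 to 602 ± 0.277 CPM (SD, n = 2; log2 fold change 0.92, edgeR adjusted p = 5.5e-18) and Krt18 from 381 ± 13.3 to 596 ± 5.71 CPM (0.64, edgeR adjusted p = 1.3e-14). Msln, the mesothelin gene, fell from 483 ± 13.1 to 349 ± 3.96 CPM (-0.47, edgeR adjusted p = 1.3e-11) and Wt1 from 365 ± 10.3 to 254 ± 2.88 CPM (-0.52, edgeR adjusted p = 4.0e-12), and Upk3b was at 165 ± 3.72 and 171 ± 0.883 CPM (edgeR adjusted p = 0.342). After the trend on GC content and length was subtracted, Krt19 turned from 0.12 to -0.17 on the log2 scale, Upk3b passed the threshold as lower (-0.11, edgeR adjusted p = 0.0216), Krt18 was at 0.34 and Msln at -0.71.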
